A study of Mus musculus with 30 samples.

Results

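The Cyp2 genes described here are the mouse cytochrome P450 genes of family 2 other than the Cyp2b genes. They were chosen by name: every non-control probe of the array whose gene name starts with Cyp2 and a letter was taken, and names starting with Cyp2b were left out. The rule found 45 of 41174 probes. These probes carry 30 gene names in 10 subfamilies (the letter after Cyp2): 11 Cyp2c, 5 Cyp2d, 5 Cyp2j and 3 Cyp2a genes, and 1 gene each of Cyp2e, Cyp2f, Cyp2g, Cyp2r, Cyp2s and Cyp2u. All 30 genes were among the 21071 genes tested, and 43 of the 45 probes passed the filter on dim probes. The second probes of Cyp2g1 and Cyp2s1 stood above background on no array. Current RefSeq names put 3 further probes in this family under older names on the array (Cyp2d34, Cyp2d12 and Cyp2ab1), and these fall outside the name rule.

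Cytochromes P450 are heme enzymes that insert 1 oxygen atom into lipophilic molecules, with electrons passed to them by P450 reductase and cytochrome b5. The Cyp2 family is the largest P450 family of the mouse, and most of its genes lie in tandem clusters that arose by duplication. In liver its members clear drugs and other foreign compounds, hydroxylate steroids and bile acids, and turn arachidonic acid into epoxides and hydroxy acids. Several are known to differ between male and female mice under the control of growth hormone, and several are enriched in hepatocytes near the portal or the central vein of the lobule. Heme holds iron, which is the nutrient the diets of this study varied.

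Livers came from 30 mice of 2 inbred strains, C57BL/6 (here B6) and DBA/2 (here D2), each fed 1 of 3 diets. Iron stood at 200 mg per kg in the iron-balanced diet, at 8.3 g per kg in the iron-enriched diet and below 3 mg per kg in the iron-deficient diet. There were 5 mice in each of the 6 groups of strain and diet, with 1 mouse on each Agilent array in 1 colour (Cy3), and the labels name no genetic change or agent besides the diet. The labels do not state the sex or the age of the mice, nor how long they were fed. The question the design puts to these genes is whether dietary iron changes them, whether the strains differ, and whether the strains answer the diets unequally.

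Signals are given as log2 of the quantile-normalized processed signal, in which 1 unit is a doubling, and differences are differences of group means on that scale. A call means an adjusted p under 0.05 in limma's moderated test, adjusted by Benjamini and Hochberg's method over all 21071 genes tested. Mice are listed in the order 1 to 5, where the number only names a mouse. Levels of different genes are not compared, since each probe has its own brightness. Of the 30 probes that stand for the genes, 29 were well above background on all 30 arrays, and the Cyp2d9 probe lacked 1 B6 deficient mouse, which left 4 values there. No member probe was marked saturated (0 of 45). In whole liver, fewer cells of a type and less RNA per cell cannot be told apart.

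The arrays were spread over 10 slides and 3 scan days (5, 11 and 14 arrays), and an array had from 62.5% to 78.5% of its probes well above background. Scan day 1 held 1 B6 array and 4 D2 arrays. B6 balanced livers had 1 array on day 2 and 3 on day 3, and B6 enriched livers 1 and 4. B6 deficient livers had 3 and 2, D2 balanced livers 3 and 1, D2 enriched livers 1 and 2, and D2 deficient livers 2 and 2. Comparisons within day 3 that use D2 balanced livers thus rest on 1 balanced mouse. Likewise, comparisons within day 2 that use B6 balanced livers rest on 1 balanced mouse, and those that use enriched livers on 1 enriched mouse of a strain. Hepatocyte markers (7 of 8 genes tested, with albumin among them) summed to a log2 signal between 20.43 and 20.71 on the arrays. Of 6 exocrine pancreas markers, Cpa1, Pnlip and Prss2 were at the floor of 3.80 on at least 1 array, while Cela1, Ctrb1 and Amy2 were above it on all. The 6 summed to a log2 signal between 12.34 and 13.34. Kupffer cell, endothelial, stellate cell, bile duct and erythroid markers were all above the floor. Among 5 sex chromosome transcripts, none changed with diet, and the group means ran from 3.90 to 4.59 for Xist, from 11.42 to 11.81 for Ddx3y and from 12.17 to 12.39 for Eif2s3y.

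The genes with an entry in the RefSeq promoter table (mouse assembly GRCm38.p6) lie on 4 chromosomes. These are chromosome 19 for the Cyp2c genes, chromosome 15 for the Cyp2d genes, chromosome 4 for the Cyp2j genes and chromosome 7 for the others. On chromosome 7 the promoters of Cyp2a4, Cyp2a5, Cyp2a12, Cyp2f2 and Cyp2s1 lie between bases 25816526 and 27119954. Those of Cyp2r1 (from base 114562973) and Cyp2e1 (from base 140763569) lie far from them. The array files name no assembly, so the probes themselves are given no position. The table held 26 promoters for 24 of the 30 genes, each read here over the 250 bases before the annotated start. Cyp2c44 (named Cyp2c23 in RefSeq), Cyp2c54, Cyp2d13, Cyp2d22, Cyp2g1 and Cyp2u1 had none.

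Shown first are the promoters of the 3 genes with an entry that were lower on the deficient diet, with a match to the HNF4 motif CAAAGTCCA in capitals.
Cyp2c70, chr19:40187287-40187536, minus strand: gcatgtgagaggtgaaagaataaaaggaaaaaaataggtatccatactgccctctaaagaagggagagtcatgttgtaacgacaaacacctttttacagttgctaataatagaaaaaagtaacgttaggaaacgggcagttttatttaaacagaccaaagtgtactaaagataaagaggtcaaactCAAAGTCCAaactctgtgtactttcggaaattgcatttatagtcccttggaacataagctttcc
Cyp2f2, chr7:27119705-27119954, plus strand: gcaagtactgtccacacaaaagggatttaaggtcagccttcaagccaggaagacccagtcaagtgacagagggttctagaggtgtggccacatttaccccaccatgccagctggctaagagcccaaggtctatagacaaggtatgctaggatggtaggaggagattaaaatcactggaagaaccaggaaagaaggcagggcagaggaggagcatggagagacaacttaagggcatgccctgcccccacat
Cyp2a12, chr7:27028840-27029089, plus strand: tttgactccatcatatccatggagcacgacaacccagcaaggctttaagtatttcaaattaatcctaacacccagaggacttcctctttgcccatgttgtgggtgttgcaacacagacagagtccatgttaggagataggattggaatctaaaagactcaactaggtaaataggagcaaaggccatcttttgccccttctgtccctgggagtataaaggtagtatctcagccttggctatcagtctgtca
HNF4 is a nuclear receptor that drives many hepatocyte genes. The motif was searched on both strands and stood in 3 of the 26 Cyp2 promoters (11.5%), against 0.384% of all 32851 promoters of the same length in the table. The 3 were Cyp2c70, Cyp2c40 and Cyp2c65, with the first base of the match 64, 45 and 116 bases before the start. Neither Cyp2f2 nor Cyp2a12 held these letters in this window.

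Shown next are promoters from 3 subfamilies that moved in B6 livers on the enriched diet, 1 gene each. Cyp2d9 and Cyp2j6 were lower on that diet and Cyp2c55 was higher.
Cyp2d9, chr15:82452127-82452376, plus strand: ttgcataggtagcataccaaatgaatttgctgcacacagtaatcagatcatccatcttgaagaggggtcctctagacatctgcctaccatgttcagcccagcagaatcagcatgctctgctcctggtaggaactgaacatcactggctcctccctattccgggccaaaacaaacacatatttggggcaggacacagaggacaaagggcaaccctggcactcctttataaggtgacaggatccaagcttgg
Cyp2j6, chr4:96553652-96553901, minus strand: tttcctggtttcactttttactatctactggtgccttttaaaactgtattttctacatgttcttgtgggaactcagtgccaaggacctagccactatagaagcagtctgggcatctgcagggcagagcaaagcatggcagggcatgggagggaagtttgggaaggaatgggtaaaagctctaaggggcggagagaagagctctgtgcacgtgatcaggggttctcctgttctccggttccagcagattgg
Cyp2c55, chr19:39006769-39007018, plus strand: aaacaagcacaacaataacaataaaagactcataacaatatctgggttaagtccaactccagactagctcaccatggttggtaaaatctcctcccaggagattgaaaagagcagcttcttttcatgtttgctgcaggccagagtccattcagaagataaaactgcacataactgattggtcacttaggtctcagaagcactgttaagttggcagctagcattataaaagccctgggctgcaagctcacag
None of these 3 held the HNF4 letters or those of the other motifs searched. The STAT motif TTCNNNGAA, bound by the growth hormone effector STAT5 among others, stood in 1 of the 26 Cyp2 promoters (3.85%, Cyp2j11) and in 7.02% of all promoters. The PAR bZIP motif (TTATGTAA or TTACGTAA), bound by the clock output factors Dbp, Tef and Hlf, stood in 0 of 26 and in 0.932% of all. The HNF1 motif GTTAATNAT stood in 0 of 26 and in 0.737% of all. A match or its lack describes letters in this window and says nothing of binding, and the D2 alleles were not read.

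Iron deficiency lowered 5 Cyp2 genes in the mean of both strains, and none passed in the higher direction. The largest difference was in Cyp2c70, which makes the muricholic acids typical of mouse bile, and the clearest was in Cyp2f2, which oxidises naphthalene and styrene and marks hepatocytes near the portal vein. Cyp2c44, an arachidonic acid epoxygenase, Cyp2u1, a hydroxylase of long-chain fatty acids, and Cyp2a12, a hydroxylase of steroids and bile acids, were the others. The 5 genes are 16.7% of the 30, and 8.08% of all genes tested passed this comparison (3.89% higher and 4.2% lower).

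In B6 livers the log2 signal of Cyp2f2 was 17.36, 17.51, 17.57, 17.43 and 17.60 on the balanced diet and 16.89, 17.11, 16.82, 16.79 and 16.88 on the deficient diet. In D2 livers it was 17.39, 17.67, 17.55, 17.48 and 17.61 on the balanced diet and 16.90, 16.55, 17.02, 17.10 and 16.86 on the deficient diet. In both strains every deficient mouse lay below every balanced mouse. The mean difference was -0.63 ± 0.06 (SE, 10 mice against 10), a 1.54-fold lower signal, with adjusted p = 3.89e-07. Cyp2f2 fell in B6 alone (-0.60, adjusted p = 0.000527) and in D2 alone (-0.66, adjusted p = 0.000114), and it was the only member to pass in both strains. The enriched diet left it at 17.32 ± 0.14 in B6 and 17.53 ± 0.06 (SD, n = 5) in D2, and neither difference passed. The averaged fall was -0.60 with the slide as a block, -0.55 within scan day 2 (adjusted p = 0.132) and -0.58 within scan day 3 (adjusted p = 0.0114). Within scan days 2 and 3 it was -0.53 and -0.51 in B6, neither passing, and -0.56 and -0.65 in D2, where day 3 passed (adjusted p = 0.0416).

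Cyp2c70 varied far more between mice. Its log2 signal in B6 was 12.49, 13.99, 14.88, 14.02 and 15.21 on the balanced diet and 12.37, 14.33, 13.33, 11.83 and 12.60 on the deficient diet, so the groups overlapped. In D2 it was 15.66, 15.74, 15.78, 15.76 and 15.05 on the balanced diet and 14.47, 13.60, 13.84, 14.32 and 14.88 on the deficient diet, and here all deficient mice were lower. The mean difference was -1.30 ± 0.29 (SE), a 2.46-fold lower signal with adjusted p = 0.00557, and 9 of 10 deficient mice were below their strain's balanced mean. Within a strain it did not pass (-1.23 in B6, adjusted p = 0.152, and -1.38 in D2, adjusted p = 0.0532). Without balanced mouse 1 it passed in B6 (-1.63, adjusted p = 0.0236), as it did without deficient mouse 2 (-1.59, adjusted p = 0.0401). With the slide as a block the averaged difference was -1.19 (adjusted p = 0.0632). It was -0.52 within scan day 2 and -0.98 on day 3, and neither passed.

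Cyp2c44 was lower on the deficient diet by 0.54 in the mean of both strains (log2 difference -0.54 ± 0.13 SE, adjusted p = 0.00825). In D2 the 5 deficient mice, at 11.07, 10.44, 10.66, 11.00 and 11.24, lay below the 5 balanced mice, at 12.04, 11.44, 12.01, 11.60 and 11.80. There the difference was -0.89 ± 0.18 (adjusted p = 0.00496). In B6 the 5 deficient mice, at 15.13, 15.57, 14.94, 15.15 and 15.51, overlapped the balanced mice, at 15.04, 15.72, 15.82, 15.12 and 15.50, and the difference of -0.18 did not pass. The test of the difference between strains gave -0.71 ± 0.25 with adjusted p = 0.54, so an unequal answer of the strains was not shown. The averaged value was -0.50 with the slide as a block (adjusted p = 0.0806), -0.27 within scan day 2 and -0.51 on day 3, and none of these passed.

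Cyp2u1 and Cyp2a12 fell by less. Cyp2u1 stood at 8.72, 8.84, 8.46, 8.41 and 8.26 in balanced B6 livers and at 8.41, 7.94, 7.76, 8.39 and 8.05 in deficient ones, with overlap. In D2 it stood at 9.48, 10.11, 9.66, 9.51 and 9.72 on the balanced diet and at 9.41, 9.10, 9.72, 9.66 and 8.95 on the deficient diet, again with overlap. The mean difference was -0.38 ± 0.11 (SE, adjusted p = 0.0294), with 9 of 10 deficient mice below their balanced mean. This call was lost when any of 6 mice was left out in turn (balanced mouse 2, deficient mouse 2 or 3 of B6, balanced mouse 2, deficient mouse 2 or 5 of D2), where adjusted p ran from 0.0512 to 0.062. It was -0.35 with the slide as a block (adjusted p = 0.123), -0.55 within scan day 2 and -0.24 within scan day 3. Cyp2a12 went from 15.17 ± 0.22 to 14.94 ± 0.19 in B6 and from 15.14 ± 0.10 to 14.86 ± 0.05 in D2 (SD, n = 5), a mean difference of -0.25 ± 0.07 (SE, adjusted p = 0.0158). With the slide as a block it was -0.19 (adjusted p = 0.141), and it was -0.14 within scan day 2 and -0.23 within scan day 3.

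By subfamily, 2 of the 11 Cyp2c genes, 1 of the 3 Cyp2a genes and the single Cyp2f and Cyp2u genes passed, while 0 of the 5 Cyp2d and 0 of the 5 Cyp2j genes did. The median difference was 0.10 over Cyp2c, -0.12 over Cyp2a, -0.07 over Cyp2d and -0.02 over Cyp2j, against 0.00 over all genes tested. All 5 Cyp2d genes were below 0, within a range of -0.16 to -0.03. Cyp2g1 differed by -0.63 and Cyp2r1 by 0.32, and neither passed, although with the slide as a block Cyp2r1 was higher (0.54, adjusted p = 0.0288). Cyp2e1, the ethanol-inducible P450 that also oxidises acetaminophen, differed by 0.01 on average and passed no diet comparison.

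Markers of lobular zones moved on the same diet. Of 8 periportal markers 3 fell (Sds by 0.70, Hal by 0.41, Gls2 by 0.33 on the log2 scale) and none rose, with a median of -0.24. Of 8 pericentral markers 3 rose (Lgr5 by 0.74, Oat by 0.50, Lect2 by 0.38) and none fell, with a median of 0.29. The summed pericentral signal ran from 17.16 to 17.61 in balanced and from 17.59 to 17.84 in deficient B6 livers, and from 17.09 to 17.30 and from 17.49 to 17.77 in D2. The summed periportal signal ran from 19.30 to 19.56 and from 19.26 to 19.43 in B6, and from 18.79 to 19.18 and from 18.88 to 19.19 in D2. All 16 markers were above the floor in every mouse. Of 7 endothelial and 7 stellate cell markers 2 each rose, and of 8 Kupffer cell and 5 bile duct markers none changed. The erythroid marker Alas2 fell by 0.62 (1 of 3 tested), the hepatocyte marker Trf rose by 0.17 (1 of 7), and of 6 pancreas markers Cela1 fell by 0.64 and Amy2 rose by 0.31. Their part in the Cyp2 differences was not tested.

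**Figure D1:**
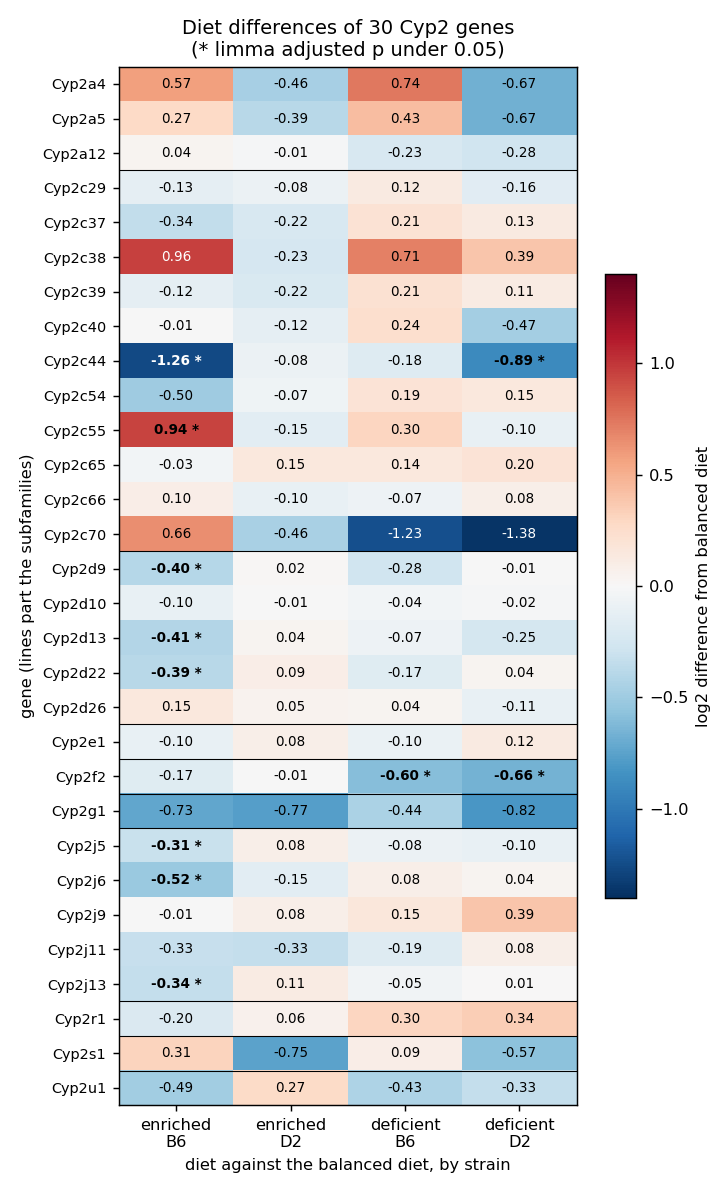
Heat map of the log2 difference from the balanced diet (colour and printed value) for the 30 Cyp2 genes (rows, lines between subfamilies) in 4 comparisons (columns: enriched or deficient diet in B6 or D2, 5 mice against 5), with a star where limma's adjusted p was under 0.05. The 11 stars are 8 in the column of enriched B6 livers, 1 in deficient B6 (Cyp2f2) and 2 in deficient D2 (Cyp2c44 and Cyp2f2), with none in enriched D2.

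Iron enrichment moved 8 Cyp2 genes in B6 livers and none in D2. In B6, Cyp2c55, which hydroxylates arachidonic acid, rose. Cyp2c44 fell by the largest amount, and 3 of 5 Cyp2d genes (Cyp2d9, Cyp2d13 and Cyp2d22) and 3 of 5 Cyp2j genes (Cyp2j5, Cyp2j6 and Cyp2j13) fell as well. The other kept probes of Cyp2d22 and of Cyp2j13 did not pass there. These 8 genes are 26.7% of the 30, beside 5.83% of all genes tested (3.31% higher and 2.52% lower).

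Cyp2c44 in B6 stood at 15.04, 15.72, 15.82, 15.12 and 15.50 on the balanced diet and at 14.54, 14.31, 14.10, 14.29 and 13.66 on the enriched diet. Every enriched mouse was below every balanced mouse. The difference was -1.26 ± 0.18 (SE), a 2.40-fold lower signal, with adjusted p = 5.19e-05. With the slide as a block it was -1.24 (adjusted p = 0.00196). It was -0.73 within scan day 2, with 1 array in either group and the spread taken from the other groups (adjusted p = 0.592), and -1.30 within scan day 3 (adjusted p = 0.0228).

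Cyp2c55 had a low signal that rose in every enriched B6 mouse. It was 6.61, 6.85, 6.59, 6.70 and 6.86 on the balanced diet and 8.25, 7.58, 7.53, 7.58 and 7.38 on the enriched diet. The groups did not overlap, and enriched mouse 1 was the highest. The difference was 0.94 ± 0.17 (SE), a 1.92-fold higher signal, with adjusted p = 0.000997. It was 0.86 with the slide as a block (adjusted p = 0.000424), 0.98 within scan day 2 (adjusted p = 0.455) and 0.88 within scan day 3 (adjusted p = 0.0398).

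The Cyp2j genes encode fatty acid oxidases, of which Cyp2j5 is an arachidonic acid epoxygenase of kidney and liver. Cyp2j6 stood at 11.66, 11.00, 11.63, 11.72 and 11.42 in balanced and at 11.21, 10.96, 10.81, 11.09 and 10.76 in enriched B6 livers, and the groups overlapped through balanced mouse 2 alone. The difference was -0.52 ± 0.14 (SE, adjusted p = 0.0273). Cyp2j13 fell by 0.34 (adjusted p = 0.0183) without overlap between the groups, and Cyp2j5 fell by 0.31 (adjusted p = 0.0447) with overlap. Cyp2j9 and Cyp2j11 differed by -0.01 and -0.33 and did not pass. Within scan day 3 the 3 that passed were at -0.41, -0.35 and -0.32, and within scan day 2 at -0.70, -0.20 and -0.05, in the order Cyp2j6, Cyp2j13 and Cyp2j5, and none passed there. All 3 calls could be lost by leaving out 1 mouse: Cyp2j13 without balanced mouse 3 (adjusted p = 0.0511) or enriched mouse 5 (adjusted p = 0.0738), Cyp2j6 without balanced mouse 1, 3 or 4 or enriched mouse 2, 3 or 5, and Cyp2j5 without any of 17 mice.

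Cyp2d9 is a testosterone hydroxylase known as male-specific in mouse liver, Cyp2d22 is the mouse gene closest to the human drug-metabolising CYP2D6, and RefSeq lists Cyp2d13 as a transcribed pseudogene. Cyp2d13 stood at 12.31, 12.54, 12.71, 12.17 and 12.65 in balanced and at 11.88, 12.11, 12.17, 12.01 and 12.18 in enriched B6 livers, where the highest enriched mouse just passed the lowest balanced one. Its difference was -0.41 ± 0.11 (SE, adjusted p = 0.0292), and the call was lost without balanced mouse 2, 3 or 5 or enriched mouse 1 or 4 (adjusted p from 0.0589 to 0.092). Cyp2d22 stood at 14.68, 14.65, 14.59, 14.69 and 14.70 in balanced and at 14.29, 14.12, 14.30, 14.27 and 14.36 in enriched B6 livers, with no overlap and a difference of -0.39 ± 0.08 (SE, adjusted p = 0.00323). Cyp2d9 went from 17.16 ± 0.11 to 16.76 ± 0.05 (SD, n = 5), again without overlap, by -0.40 (adjusted p = 0.00697). Cyp2d10 and Cyp2d26 differed by -0.10 and 0.15 and did not pass. Within scan day 3 the 3 that passed were at -0.39, -0.37 and -0.36 (Cyp2d13, Cyp2d22 and Cyp2d9), with adjusted p of 0.217, 0.0223 and 0.0484. Within scan day 2 they were at -0.20, -0.56 and -0.59, and none passed.

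Over the subfamilies, the median difference on the enriched diet in B6 was -0.39 for Cyp2d, -0.33 for Cyp2j, -0.03 for Cyp2c and 0.27 for Cyp2a, against 0.03 over all genes tested. All 5 Cyp2j genes and 4 of 5 Cyp2d genes were below 0, while all 3 Cyp2a genes were above 0 without passing. Of the 30 genes 21 were below 0 (median -0.12), and 43.8% of all genes tested were below 0. Cyp2c54 (-0.50, adjusted p = 0.0524) and Cyp2u1 (-0.49, adjusted p = 0.0582) lay just outside the threshold. With the slide as a block Cyp2c37, Cyp2c38, Cyp2c54 and Cyp2j11 passed too, and Cyp2j5 and Cyp2j6 did not. With only the compared groups in the fit, in place of all 30 arrays, 4 of the 8 passed.

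In D2 livers 0 of 30 Cyp2 genes passed on the enriched diet by limma or by an ordinary test with adjusted p, and 1 had an unadjusted p under 0.05 by either. Few genes passed at all in this comparison, 0.0902% of those tested (0.0712% higher). That count over all genes moved with the setting, from 19 to 133 with no normalization between arrays, where 0 Cyp2 genes passed. Within scan day 3 D2 had 1 balanced mouse, so no count is read there. The largest differences were in Cyp2g1, a P450 known from olfactory mucosa, and in Cyp2s1, which oxidises retinoids in epithelia. Cyp2g1 stood at 10.55, 8.76, 9.78, 10.09 and 9.99 on the balanced diet and at 7.98, 9.32, 8.74, 9.08 and 10.19 on the enriched diet, with wide overlap and a difference of -0.77 (adjusted p = 0.935). Cyp2s1 stood at 7.25, 8.06, 7.04, 7.94 and 7.45 on the balanced diet and at 7.15, 6.65, 6.91, 7.05 and 6.22 on the enriched diet, overlapping only slightly, with a difference of -0.75 ± 0.21 (SE, adjusted p = 0.287). The subfamily medians were 0.04 for Cyp2d, 0.08 for Cyp2j, -0.12 for Cyp2c and -0.39 for Cyp2a.

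The answer to enrichment was tested for a difference between the strains. It differed for 3 Cyp2 genes, Cyp2c44, Cyp2c55 and Cyp2d22 of the 30, beside 1.11% of all genes tested. Given as the D2 difference minus the B6 difference, it was 1.18 ± 0.25 (SE) for Cyp2c44 (adjusted p = 0.0196), -1.10 ± 0.24 for Cyp2c55 (adjusted p = 0.0243) and 0.48 ± 0.11 for Cyp2d22 (adjusted p = 0.0348). The Cyp2d22 value is that of the probe that stands for the gene, and its other kept probes did not pass on the enriched diet in B6. In D2 mice Cyp2c44 stood at 12.04, 11.44, 12.01, 11.60 and 11.80 on the balanced diet and at 11.52, 11.73, 11.88, 11.50 and 11.86 on the enriched diet. Cyp2c55 stood there at 6.42, 6.40, 6.74, 6.14 and 6.74 and then at 6.56, 6.69, 6.32, 5.84 and 6.27, and Cyp2d22 at 14.52, 14.81, 14.50, 14.62 and 14.49 and then at 14.82, 14.72, 14.76, 14.58 and 14.53. For all 3 genes the D2 groups overlapped, with differences of -0.08, -0.15 and 0.09. The other 5 genes called in B6 had differences between strains of 0.38 to 0.45 that did not pass, with adjusted p from 0.0726 (Cyp2j13) to 0.497 (Cyp2j6), so the Cyp2j genes, Cyp2d9 and Cyp2d13 are not shown to differ between strains in their answer.

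These 3 calls depended on the setting. With the slide as a block Cyp2c44 was at 1.32 (adjusted p = 0.0626) and Cyp2d22 at 0.43 (adjusted p = 0.086), while Cyp2c55 passed at -0.87 (adjusted p = 0.0343). Scaling each array to its 75th percentile, in place of the quantile method, ended the calls of Cyp2c55 (-1.05, adjusted p = 0.128) and Cyp2d22 (0.38, adjusted p = 0.187). Within scan day 2 the values were 0.78, -1.17 and 0.70, in the order Cyp2c44, Cyp2c55 and Cyp2d22. Within scan day 3, which held 1 balanced D2 mouse, Cyp2d22 was at 0.65 and Cyp2c44 at 1.13. The Cyp2d22 call was lost without any of 13 mice left out in turn.

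Averaged over strains, enrichment lowered 1 Cyp2 gene, Cyp2c44, by 0.67 (log2 difference -0.67 ± 0.13 SE, adjusted p = 0.00281), where 2.23% of all genes tested passed (1.21% higher and 1.01% lower). The average joins the fall in B6 with the absence of a called difference in D2. It was -0.58 with the slide as a block (adjusted p = 0.105), -0.34 within scan day 2 and -0.74 on day 3, and none of these passed. With the slide as a block the single member called was Cyp2c55, which was higher (0.43, adjusted p = 0.0375), against 0.40 without the block (adjusted p = 0.0886). Cyp2g1 had a larger mean difference of -0.75 ± 0.30 (SE) that did not pass (adjusted p = 0.223). Its B6 mice stood at 6.64, 7.84, 7.22, 7.46 and 7.49 on the balanced and at 6.95, 7.23, 5.95, 6.76 and 6.13 on the enriched diet, with overlap.

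**Figure D2:**
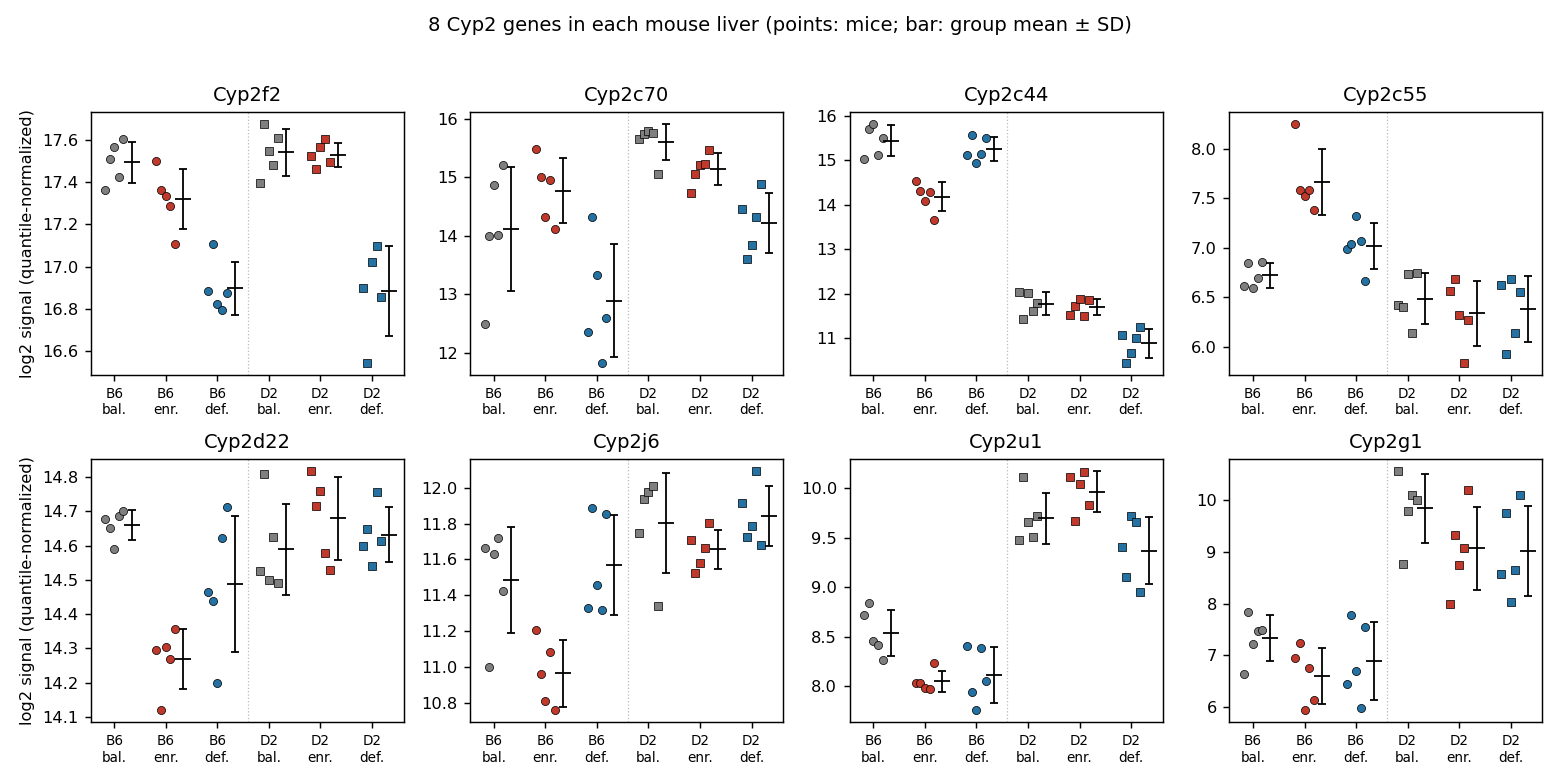
Log2 signal (vertical axes, 1 scale per gene) of 8 Cyp2 genes in each of the 30 mice, in the 6 groups of strain (circles B6, squares D2) and diet, with the group mean ± SD of 5 mice beside the points. Cyp2f2 is lowest in the deficient group of both strains, Cyp2c55 is highest in enriched B6 mice, and the Cyp2c44 values of B6 (13.66 to 15.82) and D2 (10.44 to 12.04) do not meet.

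Genes known to differ between the sexes in mouse liver moved on the same diets. Of 13 tested male-biased genes outside the Cyp2 family, 10 fell in enriched B6 livers and none rose, with a median of -1.57, among them Slco1a1, an organic anion transporter (-3.72), and Hsd3b5, a ketosteroid reductase (at least 136-fold lower, a bound, since 4 of 5 enriched mice were at the floor). In D2 none of the 13 changed on that diet (median 0.03). Of 15 female-biased genes 5 rose in enriched B6 livers and none fell, with a median of 0.81, and none changed in D2 (median -0.17). Averaged over the strains, deficiency lowered 5 and raised 1 of the male-biased genes. These lists had been described in earlier work on these same arrays and are no independent evidence, and their part in the Cyp2 differences was not tested. Pericentral markers also fell in enriched B6 livers, 3 of 8 (Rhbg by 1.25, Cyp1a2 by 0.65, Glul by 0.56 on the log2 scale), with a median of -0.29, and of 8 periportal markers none changed. Among markers of other cells, the erythroid marker Alas2 fell by 1.35 (1 of 3 tested), the bile duct marker Krt19 rose by 0.72 (1 of 5) and the endothelial marker Lyve1 rose by 0.69 (1 of 7), and all 3 differed between strains in this answer. The hepatocyte marker Apoa1 fell by 0.34 and Fgb rose by 0.29. No Kupffer, stellate cell or pancreas marker changed. In B6 the summed bile duct signal ran from 12.11 to 12.99 on the balanced and from 12.54 to 13.36 on the enriched diet, and the erythroid one from 14.95 to 15.76 and from 14.63 to 15.13. The part of these markers was not tested either.

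Of 26 transcription factors known to act on Cyp2 genes, 1 rose and 4 fell in enriched B6 livers. Dbp fell by 1.61 (adjusted p = 0.00752), Foxa3 by 0.78, Tef by 0.68 and Cebpa by 0.50. The 1 that rose was Nfe2l2 (NRF2), which turns on genes against oxidative stress, by 0.34 (adjusted p = 0.0406); it falls outside the rule for named genes and was added after its value was seen. Dbp and Tef are output factors of the circadian clock, and the hour of sampling is not stated in the labels. On the balanced, enriched and deficient diets the mean log2 signal of Dbp was 12.34, 10.73 and 11.20 for B6, and for D2 it was 15.86, 15.70 and 15.25. In the averaged deficiency comparison Nr1i3, the receptor CAR, rose by 0.28 (adjusted p = 0.0126) and Dbp fell by 0.88 (adjusted p = 0.0335). None of the 26 passed on the enriched diet in D2.

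Of 18 genes that pass electrons to P450 enzymes or make and break down heme, 1 changed in each averaged diet comparison. Alas1, the rate-limiting enzyme of heme synthesis in liver, fell by 0.69 on the enriched diet (adjusted p = 0.0425) and by 0.97 in B6 alone (adjusted p = 0.0233). Ppox, a later enzyme of heme synthesis, fell by 0.18 on the deficient diet (adjusted p = 0.0145). None of the 18 passed within D2 on either diet or within B6 on the deficient diet. The P450 reductase gene Por was among those that passed no diet comparison.

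More Cyp2 genes passed between strains than between diets. Averaged over diets, 18 of the 30 Cyp2 genes (60.0%) differed between D2 and B6, 11 higher and 7 lower in D2, beside 50.1% of all genes tested (25.9% higher and 24.2% lower). By the probes that stand for the genes, Cyp2c44, Cyp2g1, Cyp2c38 and Cyp2u1 had the largest differences, with no overlap of D2 and B6 mice in these 4. How often the other genes tested lack such overlap is not given here, so it does not set these 4 apart. For Cyp2c38 the other probe pointed the opposite way (-0.55, adjusted p = 0.0342).

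Cyp2c44 in the 15 B6 mice ran from 13.66 to 15.82 with a median of 15.12, and in the 15 D2 mice from 10.44 to 12.04 with a median of 11.52. The difference of -3.51 ± 0.10 (SE) is an 11.4-fold lower signal in D2 (adjusted p = 1.02e-20), and it was -3.24 within scan day 2 and -3.55 within scan day 3. Cyp2g1 ran from 5.95 to 7.84 (median 6.95) in B6 and from 7.98 to 10.55 (median 9.32) in D2, 2.36 ± 0.24 (SE) higher or 5.14-fold (adjusted p = 4.68e-09). Cyp2u1 ran from 7.76 to 8.84 (median 8.23) in B6 and from 8.95 to 10.16 (median 9.67) in D2, a difference of 1.44 ± 0.09 (SE, adjusted p = 1.35e-13). The order of the strains was opposite for Cyp2c44 on one side and Cyp2g1 and Cyp2u1 on the other, and all 3 differences passed on day 2 alone and on day 3 alone.

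Cyp2r1, which makes the storage form of vitamin D in liver, was 2.33-fold lower in D2 (-1.22, adjusted p = 1.71e-09), with group means of 9.39 to 9.89 in B6 and 8.27 to 8.61 in D2. The steroid hydroxylase gene Cyp2a4 (-1.19, adjusted p = 0.000339) and Cyp2a5, the coumarin hydroxylase gene (-0.76, adjusted p = 0.00796), were lower in D2, while Cyp2a12 was not called. Cyp2c55 (-0.73), Cyp2c39 (-0.40) and Cyp2c37 (-0.33) were lower as well, and Cyp2c70 was higher in D2 (1.06, adjusted p = 0.000502). The Cyp2c55 value is a mean over the diets that includes its rise in enriched B6 livers. On the balanced diet its B6 and D2 mice overlapped. Within scan day 3 the Cyp2c70 difference was 0.54 and did not pass (adjusted p = 0.292), and within scan day 2 it was 1.82 (adjusted p = 0.00517). By the probes that stand for the genes, the Cyp2c subfamily held 2 genes higher and 4 lower in D2, with a median of -0.08. One of the 2 is Cyp2c38, whose other probe was lower in D2, so without it 1 was higher and 4 were lower.

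The Cyp2d and Cyp2j genes that passed were higher in D2 by the probes that stand for them, though another probe of Cyp2d22 was lower in D2 by 0.15 (adjusted p = 0.0128). They were 4 of 5 Cyp2d genes (Cyp2d13 by 0.66, Cyp2d9 by 0.34, Cyp2d22 by 0.16 and Cyp2d26 by 0.13) and 3 of 5 Cyp2j genes (Cyp2j6 by 0.43, Cyp2j5 by 0.40 and Cyp2j13 by 0.38). For Cyp2d22 the effect of enrichment differed between strains, and on the balanced diet its B6 and D2 mice overlapped. The Cyp2d26 call was lost with the slide as a block (adjusted p = 0.153), with the scan day as a block (adjusted p = 0.089) and without B6 balanced mouse 4 (adjusted p = 0.051). The 6 genes of both subfamilies that fell on the enriched diet in B6 are among these 7. The strain difference is a mean that includes the enriched B6 livers, so those falls enter it and the results are not separate.

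Male-biased and female-biased genes outside the family also differed between strains. Of the 13 male-biased genes 12 were higher in D2 and none lower (median 0.84), and of the 15 female-biased genes 1 was higher and 10 were lower (median -0.69). These are means over the diets and include the enriched B6 livers, where 10 of the male-biased genes fell and 5 of the female-biased genes rose. The effect of enrichment differed between strains for 7 of the 13 and for 2 of the 15. Of the 8 Kupffer cell markers all 8 were lower in D2 (summed signal 15.53 to 16.63 in B6 and 14.87 to 15.47 in D2), as were all 7 endothelial markers, while 3 hepatocyte markers were higher and 3 lower. Of the pericentral markers 5 were higher and 1 lower, and of the periportal markers none was higher and 6 were lower. Among the heme and electron transfer genes 6 were higher and 7 lower, and among the 26 transcription factors 9 and 7. Their part in the strain differences of the Cyp2 genes was not tested. The probes are those of the array's design, and sequence differences between the strains under a probe were not examined.

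**Figure D3:**
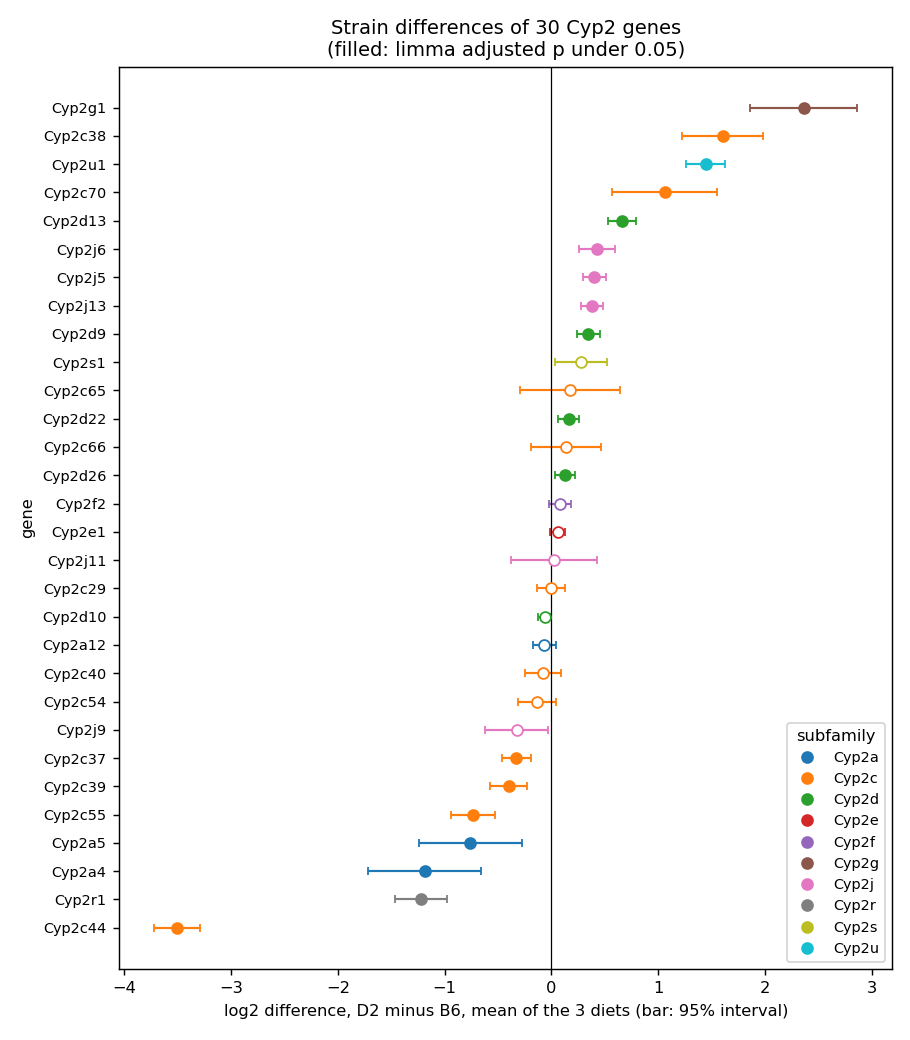
Difference between strains (horizontal axis, D2 minus B6 in log2 units, mean of the 3 diets, 15 mice against 15) for each of the 30 Cyp2 genes, coloured by subfamily, with its 95% confidence interval and a filled point where limma's adjusted p was under 0.05. The points run from -3.51 (Cyp2c44) to 2.36 (Cyp2g1), and the filled Cyp2d and Cyp2j points all lie to the right of 0.

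The answer to deficiency was tested for a difference between the strains in the same way. By limma 0 of the 30 Cyp2 genes passed, 6 had an unadjusted p under 0.05 (6 also by the ordinary test), and 0.019% of all genes tested passed. The largest differences were in Cyp2a4 (-1.41, adjusted p = 0.669) and Cyp2a5 (-1.10, adjusted p = 0.727), which stand in opposite directions in the strains. In B6, Cyp2a4 was 15.53, 15.76, 15.46, 16.26 and 15.75 on the balanced diet and 15.86, 16.96, 16.60, 16.34 and 16.72 on the deficient diet. In D2 it was 16.45, 14.08, 15.03, 15.67 and 15.70 and then 14.38, 16.29, 13.67, 13.76 and 15.45. The groups overlapped in both strains, and the D2 mice of 1 group spread over more than 2 log2 units. In B6 alone, 1 gene passed on the deficient diet (1.79% of all genes tested), in D2 alone 2 genes, both lower (4.68%, with 1.78% higher and 2.89% lower), and the Cyp2a4 difference of 0.74 in B6 was not among them (adjusted p = 0.54).

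Cyp2a5 had its highest and lowest values in the same mice as Cyp2a4. In B6 it was 16.45, 16.21, 16.16, 17.00 and 16.43 on the balanced diet and 16.14, 17.41, 16.68, 16.84 and 17.31 on the deficient diet. In D2 it was 17.09, 15.20, 15.94, 16.62 and 16.53 and then 15.20, 17.05, 14.55, 14.85 and 16.37. In 6 of 6 groups the same mouse was highest for both genes, and in 6 of 6 the same mouse was lowest, while the order in between was not always shared. The promoters of the pair, set 1 base apart, share 245 of 249 bases (98.4%), with the 4 that differ in capitals.
Cyp2a4, chr7:26306943-26307191, plus strand: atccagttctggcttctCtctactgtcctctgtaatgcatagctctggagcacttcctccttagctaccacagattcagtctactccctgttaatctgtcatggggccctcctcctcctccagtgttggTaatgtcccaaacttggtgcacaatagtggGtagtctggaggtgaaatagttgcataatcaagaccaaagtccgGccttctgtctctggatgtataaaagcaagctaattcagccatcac
Cyp2a5, chr7:26835089-26835337, plus strand: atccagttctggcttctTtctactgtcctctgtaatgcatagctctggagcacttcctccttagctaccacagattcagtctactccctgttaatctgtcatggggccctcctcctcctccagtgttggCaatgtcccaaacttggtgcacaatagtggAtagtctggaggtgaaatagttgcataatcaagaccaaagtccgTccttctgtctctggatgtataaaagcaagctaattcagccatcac
The genes are near-identical copies, how far each probe also binds the other transcript was not measured, and their separate levels are therefore uncertain. The same holds for the Cyp2c, Cyp2d and Cyp2j clusters, whose genes are close relatives.

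The Cyp2 genes differed widely in how much they varied between mice of a group. The pooled within-group SD was 0.735 for Cyp2a4, 0.696 for Cyp2g1, 0.681 for Cyp2c70, 0.667 for Cyp2a5 and 0.650 for Cyp2c65, above that of 97.6%, 96.9%, 96.5%, 96.2% and 95.6% of all genes tested. It was 0.063 for Cyp2d10 and 0.083 for Cyp2e1, at the 0.4th and 3.0th percentile, and the median over all genes was 0.243. A difference must be larger to pass for the first 5 genes than for the last 2.

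The other Cyp2c genes passed no diet comparison. Cyp2c29, an arachidonic acid epoxygenase, had group means between 16.27 and 16.52, and Cyp2c40, which makes hydroxy acids from arachidonic acid, between 16.44 and 16.96. In D2 Cyp2c40 was at 16.91 ± 0.17 on the balanced and 16.44 ± 0.21 on the deficient diet (SD, n = 5), without overlap, and the difference of -0.47 lay just outside the threshold (adjusted p = 0.0505). Cyp2c39, known to oxidise retinoic acid, had group means of 15.50 to 15.83 in B6 and 15.06 to 15.39 in D2, and Cyp2c37 of 15.84 to 16.39 and 15.61 to 15.96. Both passed between strains, and the other probe of Cyp2c37 was lower on the enriched diet averaged over strains (-0.29, adjusted p = 0.0365). Cyp2c65 had group means between 6.26 and 6.59 and Cyp2c66 between 5.70 and 6.00, and no comparison passed for either. With a block, however, Cyp2c66 was higher in D2. It was 0.32 by slide (adjusted p = 0.000539) and 0.32 by scan day (adjusted p = 0.0116), against 0.13 without a block. In the Cyp2j subfamily, Cyp2j9 (10.65 to 11.23) and Cyp2j11 (10.99 to 11.40) passed none. Here too the strain difference moved with the setting. Cyp2j11 was higher in D2 with the slide as a block (0.43, adjusted p = 2.5e-05), against 0.02 without it, and was at 0.45 within scan day 2. Cyp2j9 was lower in D2 with no normalization between arrays (-0.42, adjusted p = 0.0289), against -0.32 with it (adjusted p = 0.063).

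For 11 of the genes another probe was kept besides the one that stands for the gene, 13 probes in all. Set against differences that passed for the standing probe, they gave 18 pairs, of which 9 had the same sign and 6 passed with it, while 2 passed with the opposite sign. These were the strain differences of Cyp2c38 and Cyp2d22. For Cyp2c38, an arachidonic acid epoxygenase gene, the standing probe was 9.86, 10.12, 10.25, 8.94 and 9.99 in balanced B6 livers and 12.50, 11.36, 12.36, 11.84 and 11.61 in balanced D2 livers, without overlap, and was 1.60 ± 0.18 (SE) higher in D2 over all diets (adjusted p = 3.44e-08). The other probe was 10.43 ± 0.61 in balanced B6 and 10.34 ± 0.59 in balanced D2 (SD, n = 5), and was lower in D2 over all diets by 0.55 (adjusted p = 0.0342). The direction for Cyp2c38 between strains is thus not settled by these arrays.

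For Cyp2d22 the standing probe fell on the enriched diet in B6 while its other 2 probes were at 0.11 and -0.12 and did not pass. Between strains 1 of those 2 was lower in D2 by 0.15 (adjusted p = 0.0128), against 0.16 higher for the standing probe. For Cyp2j13 the other 2 probes, both dim with group means of 5.21 to 5.63 and 3.80 to 4.24, were at 0.37 and 0.22 on the enriched diet in B6 and at -0.14 and -0.04 between strains, against -0.34 and 0.38 for the standing probe, and did not pass. For Cyp2d9 the other probe fell on the enriched diet in B6 too (-0.52, adjusted p = 0.00237). For Cyp2d10 only the other probe fell there (-0.31, adjusted p = 0.00807), and the standing probe was at -0.10. For Cyp2a4 both probes gave the same order of the 6 groups.

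**Figure D4:**
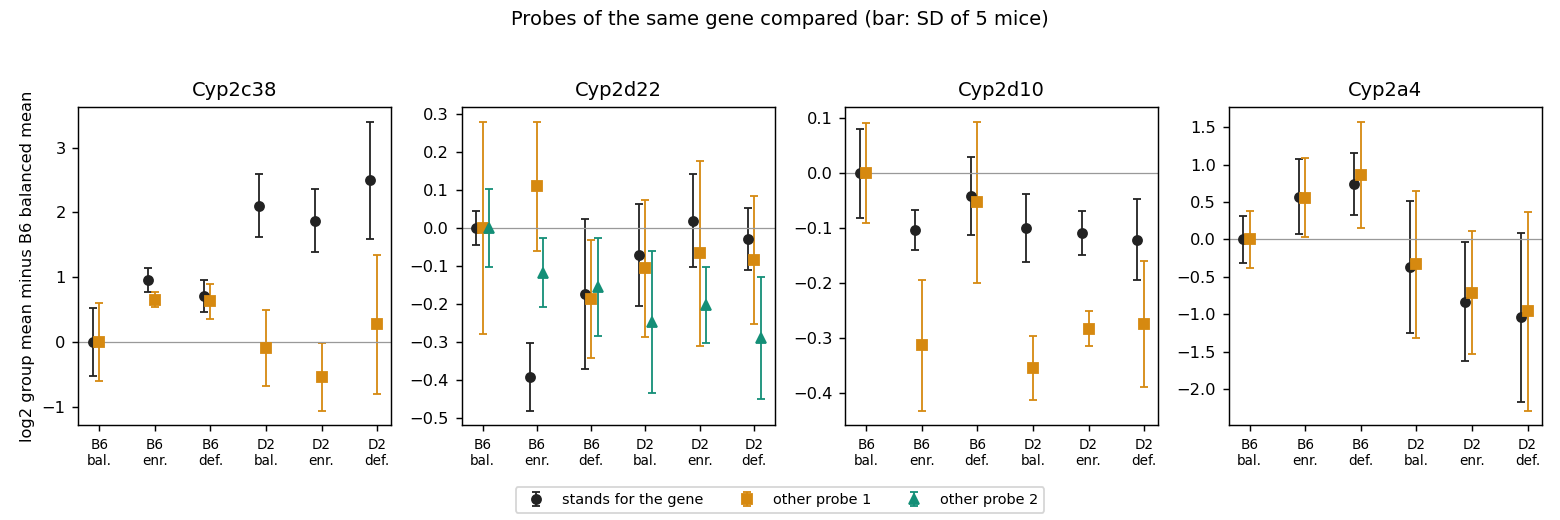
Group means of each kept probe minus that probe's mean in balanced B6 livers (vertical axes, log2 units, bars ± SD of 5 mice), in the 6 groups of strain and diet, for Cyp2c38, Cyp2d22, Cyp2d10 and Cyp2a4. The probes of Cyp2a4 move together, the 2 probes of Cyp2c38 part in D2 livers, and 1 of the 3 probes of Cyp2d22 is set apart in enriched B6 livers.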

How the data were processed

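Total liver RNA of 30 mice was labelled with Cy3 and hybridised in 1 colour, per the labels. The deposited files hold the scanner software's fluorescence intensity of each spot (processed, mean and background signals) and its 0 or 1 marks, made with Agilent Feature Extraction 9.1.3.1 per the file headers (9.5.1 per the labels). Per those headers the authors' processed intensity is background-subtracted and detrended, with no scaling between arrays. A series value table deposited with them equalled the processed intensity (largest difference 0) and was used only for that check.

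The 1639 control spots were left out of the tests, outlier spots were set aside, and spots of a probe were averaged. Signals below 13.9 (log2 3.80, the median over arrays of each array's dimmest signal bearing the well-above-background mark) were raised to it after quantile normalization, and log2 was taken. That mark means a background-subtracted signal over a multiple of the array's additive error. A probe was kept with that mark on at least 3 arrays of each strain and at least 3 values in each group, and the kept probe with the highest mean stood for a gene (29986 probes, 21071 genes, 6380 of them with more than 1 kept probe). Names came from RefSeq by accession for 22951 probes and by symbol for 6659, and 11564 kept the name in the files; members keep the array's name.

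Group means of all 30 arrays were fitted with limma 3.58.1 in R 4.3.3, with 9 contrasts, and tested on simulated data first. Tables and plots were made in Python 3.11.15. The series' text names a linear model on strain, diet and their interaction, and R/maanova was not run; an ordinary test without moderated variances stood in its place as an alternative. The p-values measure the spread between the mice as labelled. Alternatives changed the scaling, the background correction, the filter on dim probes (with that of the series' text among them), the rule for several probes, the slide or scan day (as a block or within a day), the samples in the fit and each mouse in turn.

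The genes and lists were chosen with earlier results of these data known. Values per mouse are given for up to the 4 largest passing members in each contrast, or the largest 2 where fewer than 2 passed. At most 4 passing genes of a list are named per contrast, apart from Nfe2l2, which was added in enriched B6 livers. Motifs were searched in RefSeq promoters of GRCm38.p6.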

Additional observations from a re-analysis of the deposited data

Results flagged for a closer look

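In 8 of the 180 groups of a gene and 5 mice (4 for Cyp2d9 in deficient B6 mice), 1 mouse stood far from the others by Dixon's criterion, which chance alone meets in about 1 in 20 groups. Cyp2c55 in enriched B6 mouse 1 was at 8.25 (the others 7.38 to 7.58), and Cyp2a4 in enriched B6 mouse 4 was at 15.44 (16.45 to 16.74). Cyp2e1 in enriched B6 mouse 1 was at 17.37 (17.25 to 17.28), and Cyp2u1 in enriched B6 mouse 5 was at 8.23 (7.97 to 8.03). In D2, Cyp2c70 in balanced mouse 5 was at 15.05 (15.66 to 15.78), Cyp2c65 in balanced mouse 3 at 5.36 (6.50 to 6.79), Cyp2r1 in enriched mouse 4 at 7.81 (8.40 to 8.53) and Cyp2d10 in deficient mouse 3 at 17.04 (17.17 to 17.21).

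The effect of the enriched diet differed between the strains, by limma's test of the difference itself, for Cyp2c44 (1.18, D2 minus B6 in log2 units), Cyp2c55 (-1.10) and Cyp2d22 (0.48). The Cyp2d22 value comes from the probe that stands for the gene, and its other kept probes did not pass on that diet in B6.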

How the results depend on the processing

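Of 38 differences that passed, all kept their direction under the 12 alternatives and with each of the 30 mice left out. Under all 12, 9 passed, and 31 passed with every mouse left out. All 9 were differences between strains averaged over diets, and no difference between diets was among them. The alternative that tested every kept probe was read at the probe that stands for the gene, so it could not turn a direction. Of the 18 pairs with another kept probe, 9 had the same sign and 2 passed with the opposite sign. Cyp2c38 counts among the 9 differences that passed throughout, though its other probe pointed the opposite way. The number of Cyp2 genes called moved by over 1.5 times as follows, with the number called among all genes tested beside it or in brackets. Where a comparison within a scan day left 1 mouse in a group, no count is read. For enrichment averaged over strains (1 gene beside 469) it was 2 with no normalization between arrays (347). It was also 2 with normexp (477) and 2 with the scan day as a block (806). With the slide as a block it was 1 (302), but Cyp2c55 (higher) in place of Cyp2c44. For averaged deficiency (5 genes beside 1703) it was 3 with no normalization (981) and 3 with the compared groups alone (1154). With the slide as a block it was 2 (1664), which were Cyp2f2, lower, and Cyp2r1, higher. For enrichment in B6 (8 genes beside 1228) it was 2 with no normalization (713), 4 within day 3 (308) and 4 with the compared groups alone (328). For deficiency in B6 (1 gene beside 378) it was 0 within day 3 (8). For deficiency in D2 (2 genes beside 986) it was 5 with 75th percentile scaling (1152), 4 with normexp (951) and 0 within day 2 (3). Between strains (18 genes) it was 11 within day 2. For the strain difference in the effect of enrichment (3 genes beside 234) it was 1 with 75th percentile scaling (222). It was 1 with the slide as a block (259) and 1 with no normalization (894), the latter none of the 3. The cause was not tested.

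Leaving out 1 mouse gave 1 to 2 genes for averaged enrichment (2 without B6 balanced mouse 2, B6 deficient mouse 3, D2 balanced mouse 5 or D2 enriched mouse 4 or 5), 4 to 6 for averaged deficiency, 5 to 9 for enrichment in B6 (5 without balanced mouse 3 or enriched mouse 5), 0 for enrichment in D2, 1 to 2 for deficiency in B6 (2 without balanced mouse 1 or deficient mouse 2), 2 to 4 for deficiency in D2 (4 without B6 balanced mouse 1 or 5 or D2 deficient mouse 5), 18 to 20 between strains, 2 to 4 for the strain difference in enrichment and 0 for that in deficiency. The deficiency difference of Cyp2c70 in B6, not called, turned from -1.23 to 0.10 within scan day 2. The ordinary test, adjusted alike, called 1, 5, 8, 0, 1, 2, 19, 3 and 0 genes in the order enrichment averaged, deficiency averaged, enrichment in B6 and D2, deficiency in B6 and D2, strain, and both strain differences. No paired analysis was possible because the replicate numbers only follow the order of deposition and pair no mice. In the diet comparisons averaged over strains, with 10 mice a diet, the smallest difference that passed was -0.25 (Cyp2a12). Within a strain, with 5 mice a group, it was -0.31 (Cyp2j5, enriched diet in B6). Smaller ones may go undetected.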
